A study of Physalis pubescens with 5 samples.

Results

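The 3 unigenes described here encode 1-aminocyclopropane-1-carboxylate (ACC) oxidase, the enzyme that makes the plant hormone ethylene. Unigenes are transcripts put together from sequencing reads, without a genome. The 3 were taken by identifier, Unigene54240_P106, Unigene54439_P106 and Unigene1527_P106, out of 133571 unigenes. They were picked among the unigenes described as ACC oxidase and selected on their deposited counts, RPKM and coverage in the 4 libraries, so their own levels and differences are given as a description, without a test. RNA came from young fruits, collected after fertilization, and from floral buds, collected before it, with 2 libraries per organ. All plants were cultivar P106, named P. floridana in the growth protocol and Physalis pubescens in the organism label, and grew under a daily 16 h light and 8 h dark cycle. The protocol, worded alike for both organs, speaks of fruits 5 days old. The design text speaks of triplicates, while the labels give replicates 1 and 2 of each organ. The labels do not say whether replicates are separate plants, and p-values therefore cover just the spread among these samples, which could be technical.

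Ethylene is made from methionine. S-adenosylmethionine (SAM) synthetase activates methionine, ACC synthase turns the product into ACC, and ACC oxidase converts ACC to ethylene with cyanide and carbon dioxide as by-products. Beta-cyanoalanine synthase removes the cyanide, and the methionine salvage cycle recovers the sulfur group. Receptors in the endoplasmic reticulum hold the pathway off until they bind ethylene, after which EIN3-type transcription factors switch on ethylene response factors. In tomato, a relative in the same family, ethylene drives fruit ripening and the senescence and shedding of flower parts.

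In units of 1e6 counts, the libraries totalled 9.002 and 8.24 in fruit replicates 1 and 2, and 8.65 and 8.38 in floral bud replicates 1 and 2. A floor of 3 counts lay at 0.333 to 0.364 CPM, where CPM is the count per 1e6 counts of the library. The organ labels were set against summed transcripts of marker lists. Pollen and anther transcripts, 63 listed unigenes, totalled 968 and 7388 CPM in fruit replicates 1 and 2, against 3493 and 4176 CPM in floral bud replicates 1 and 2. Fruit replicate 2 thus held more of them than either bud library. Photosynthesis transcripts, 138 unigenes, summed to 17950 and 6746 CPM in the fruits, and to 7947 and 7540 CPM in the buds. Seed storage transcripts, 20 unigenes, summed to 390 CPM or less in each fruit, and to 4981 and 5225 CPM in the buds. The single unigene matched by petal and stamen identity names had 66.1 and 96.5 CPM in the fruit libraries, against 109.8 and 112.6 CPM in the bud libraries, so this marker was present in the fruits too. In such bulk samples, fewer cells of a type and less RNA per cell cannot be told apart.

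The 3 ACC oxidase unigenes stood much higher in replicate 2 than in replicate 1 of both organs, and this difference exceeded the one between the organs. Fruit replicate 1 was the lowest library for each of them, and floral bud replicate 1 the second lowest. In both replicates the organs differed in the make-up of the reads of these 3 unigenes, calculated from the counts that chose them. In fruit Unigene1527_P106 took a smaller share of them and Unigene54240_P106 a larger one, while the shares of Unigene54439_P106 overlapped between organs. Among all tested unigenes, 3.57% had fewer reads for each read of Unigene54240_P106 in both fruits than in both buds. Over the whole ACC oxidase list, the shares of Unigene54240_P106 overlapped as well. Such shares depend on each other, so the shift cannot be assigned to 1 unigene alone.

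Unigene54240_P106 is 1059 bases long, the longest unigene in the ACC oxidase list, and its best database hit is a tomato ACC oxidase in all 4 libraries' annotation. It had 1066 and 22136 counts in fruit replicates 1 and 2, and 2467 and 12785 counts in floral bud replicates 1 and 2. On the CPM scale these were 118 (exact Poisson 95% interval 111 to 126) and 2686 (2651 to 2722) in the fruits, and 285 (274 to 297) and 1527 (1500 to 1553) in the buds. The fruit values lie on either side of both bud values, so the organs overlapped. By count it ranked 1090 of 115652 listed unigenes in fruit replicate 1 and 9 of 104421 in fruit replicate 2, and 272 of 119786 in floral bud replicate 1 and 18 of 103959 in floral bud replicate 2. Reads covered 92.3% and 94.6% of its length in the fruits, and 96.9% and 96.2% in the buds, so most of the unigene was seen in every library. Intervals cover counting error only. No molecular identifiers are described, so copies of 1 molecule may be counted more than once, which these intervals leave out.

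Unigene54439_P106 is a short unigene of 198 bases. In the annotation of replicates 2 its best hit is the same tomato ACC oxidase record as that of Unigene54240_P106, and in that of replicates 1 it is a poplar protein. It had 577 and 11500 counts in fruit replicates 1 and 2, and 1550 and 7509 counts in floral bud replicates 1 and 2, or 64.1 and 1396 CPM in the fruits, and 179 and 897 CPM in the buds. These values too bracket those of the buds. Reads covered 99.5% of its length in all 4 libraries. Per length it was the most abundant of the 3, with 324 and 7049 RPKM (counts per kilobase of unigene and 1e6 counts) in the fruits, and 905 and 4528 RPKM in the buds. It ranked 2 by RPKM in fruit replicate 2 and 5 in floral bud replicate 2, but 420 in fruit replicate 1 and 91 in floral bud replicate 1.

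Unigene1527_P106, of 603 bases, has tomato ACC oxidase 1 as its best hit in the annotation of replicates 2, the form known as the main ACC oxidase of ripening tomato fruit. The annotation of replicates 1 gives an unnamed tomato protein. It had 207 and 4616 counts in fruit replicates 1 and 2, and 935 and 5070 counts in floral bud replicates 1 and 2, or 22.99 (exact Poisson 95% interval 20.0 to 26.4) and 560 (544 to 577) CPM in the fruits, and 108 (101 to 115) and 605 (589 to 622) CPM in the buds. Each fruit library was below the bud library of its own number, but fruit replicate 2 lay far above floral bud replicate 1, so the organs overlapped here as well. Coverage of its length was 96.3% to 99.8% over the 4 libraries.

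**Figure D1:**
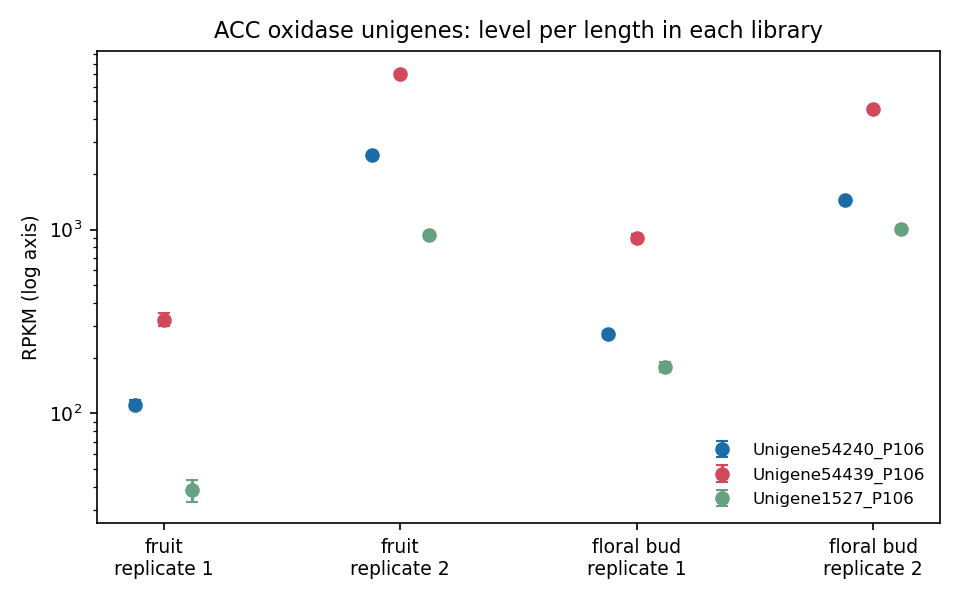
Level per length (RPKM, log axis) of the 3 ACC oxidase unigenes in each library, with bars for the exact Poisson 95% interval of the count. In every library Unigene54439_P106 is highest and Unigene1527_P106 lowest, and both libraries of replicate 2 stand above both libraries of replicate 1.

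Per length, the order of the 3 was the same in all 4 libraries. Unigene54439_P106 stood above Unigene54240_P106, at 324 against 112 RPKM in fruit replicate 1 and at 905 against 269 RPKM in floral bud replicate 1. Unigene1527_P106 was lowest, with 38.1 and 929 RPKM in the fruits, and 179 and 1004 RPKM in the buds. Averaged within organs, the levels of Unigene54240_P106 were 1324 ± 1715 RPKM in fruit and 856 ± 829 RPKM in buds (SD, n = 2 each). Those of Unigene54439_P106 were 3686 ± 4755 RPKM in fruit and 2717 ± 2562 RPKM in buds, and those of Unigene1527_P106 were 484 ± 630 RPKM in fruit and 592 ± 583 RPKM in buds. In fruit each SD exceeded its mean, and between the organs the mean levels did not differ beyond their spread. Within libraries the order was steadier than these means. The RPKM of Unigene54439_P106 was 2.90 and 2.78 times that of Unigene54240_P106 in the fruits, and 3.36 and 3.14 times in the buds. That of Unigene1527_P106 was 0.341 and 0.366 times that of Unigene54240_P106 in the fruits, and 0.666 and 0.696 times in the buds.

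Within fruit, the level in replicate 2 was 22.7 times that in replicate 1 for Unigene54240_P106 (interval from counting error 21.3 to 24.2), 21.8 times for Unigene54439_P106 (20.0 to 23.7) and 24.4 times for Unigene1527_P106 (21.2 to 28.1). Within buds it was 5.35 times (5.12 to 5.59), 5.00 times (4.73 to 5.29) and 5.60 times (5.22 to 6.01). The replicate difference was thus of nearly 1 size for the 3 unigenes within an organ, and larger in fruit than in bud for each of them. All 3 were at least 4-fold higher in replicate 2 of both organs on the log2 CPM scale with library scaling, as were 0.284% of the 59858 tested unigenes, while 1.24% were at least 4-fold lower. Replicate 2 was above replicate 1 in both organs for 34.7% of them. Since the 3 were chosen with these counts known, nothing is read from those shares. The files of replicates 1 and those of replicates 2 also differ in their annotation columns, and whether the replicate numbers stand for separate collections or sequencing runs is not given in the sources used here. Pollen and anther transcripts, given above, also differed between the fruit replicates but far less between the buds, and their part in the ACC oxidase levels was not tested.

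Over the 4 libraries, the highest log2 CPM exceeded the lowest by 4.72 for Unigene54240_P106, 4.66 for Unigene54439_P106 and 4.85 for Unigene1527_P106. The median of this range over the 19348 tested unigenes with a mean of at least 10 CPM was 0.77.

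Setting fruit against floral bud asks how transcript levels stand after and before fertilization. Between libraries that share a number, Unigene54240_P106 in replicate 1 was at 118 CPM in fruit against 285 CPM in bud, which is 0.415 times the bud level (interval from counting error 0.386 to 0.446). In replicate 2 fruit stood at 1.76 times the bud level (1.72 to 1.80). Unigene54439_P106 went the same way, at 0.358 times (0.324 to 0.394) in replicate 1 and 1.56 times (1.51 to 1.60) in replicate 2. The direction between the organs thus turned with the replicate for both. Among all tested unigenes, 5.00% were at least 1.5-fold lower in fruit in replicate 1 and at least 1.5-fold higher in replicate 2. Unigene1527_P106 was lower in fruit in both, at 0.213 times (0.182 to 0.247) and 0.925 times (0.889 to 0.963) the bud level. The small difference in replicate 2 depended on scaling, with a log2 change of -0.112 by library totals and -0.039 by TMM factors.

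The log2 change of fruit over bud, from a fit over all 4 libraries, was 0.71 for Unigene54240_P106, 0.52 for Unigene54439_P106 and -0.21 for Unigene1527_P106. The spread between replicates of 1 organ was 2.67, 2.62 and 2.73 on that scale (pooled SD), several times each change. Single libraries decided these directions. In the same order of unigenes, the changes were 1.65, 1.46 and 0.74 without fruit replicate 1, and -3.09, -3.23 and -4.11 without fruit replicate 2. They were -0.06, -0.24 and -0.99 without floral bud replicate 1, and 2.52, 2.25 and 1.65 without floral bud replicate 2. Averaging log2 CPM in place of counts also turned the first 2, to -0.21 and -0.41, with -1.15 for Unigene1527_P106. With 2 libraries per organ, 0.333 is the smallest two-sided p of an exact permutation test.

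The make-up of the ACC oxidase reads, a ratio within each library that does not depend on scaling between libraries, was close in replicates of 1 organ. Of the reads of the 3 unigenes, Unigene1527_P106 held 11.2% of 1850 in fruit replicate 1 (exact binomial 95% interval 9.79 to 12.7) and 12.1% of 38252 in fruit replicate 2 (11.7 to 12.4). In buds it held 18.9% of 4952 in replicate 1 (17.8 to 20.0) and 20.0% of 25364 in replicate 2 (19.5 to 20.5). The organs did not overlap, and the mean share was 11.6% ± 0.62 in fruit and 19.4% ± 0.78 in buds (SD, n = 2 each), 7.81 percentage points lower in fruit. Unigene54240_P106 held the largest share in every library, with 57.7% ± 0.17 in fruit and 50.1% ± 0.42 in buds. The share of Unigene54439_P106 was 31.2% and 30.1% in the fruits, and 31.3% and 29.6% in the buds, so its organs overlapped. These shares were calculated from the counts that chose the members and are not tested.

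**Figure D2:**
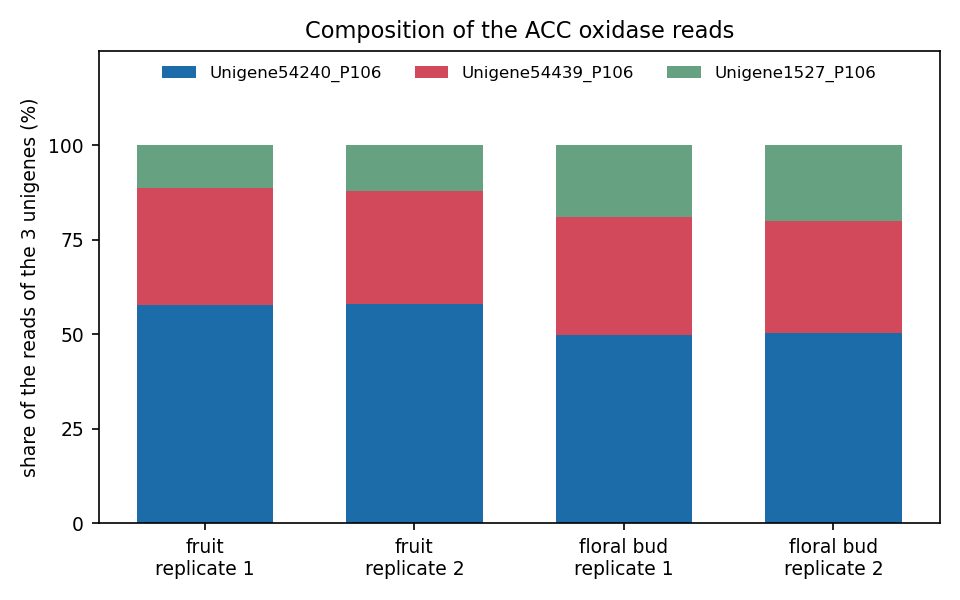
Share of the summed reads of the 3 ACC oxidase unigenes held by each, in each library (stacked bars, percent). The share of Unigene1527_P106 is 11.2% and 12.1% in the fruits and 18.9% and 20.0% in the buds, although the total number of reads differs widely between replicates.

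For every read of Unigene54240_P106 there were 0.194 and 0.209 reads of Unigene1527_P106 in the fruits, and 0.379 and 0.397 in the buds. A read ratio to Unigene54240_P106 lower in both fruits than in both buds was met by 3.57% of the tested unigenes, but the rule chose the members on these counts. Unigene54439_P106 had 0.541 and 0.520 reads for each read of Unigene54240_P106 in the fruits, and 0.628 and 0.587 in the buds, again lower in both fruits but by less. Since both match 1 tomato record, and the counts are of uniquely mapped reads, their separate levels are uncertain. Whether they are pieces of 1 transcript was not tested. With all unigenes of the ACC oxidase list as the denominator, Unigene1527_P106 held 6.25% and 10.9% of the reads in the fruits, and 14.8% and 17.3% in the buds, still without overlap. Unigene54240_P106 then held 32.2% and 52.4% in the fruits, and 39.0% and 43.7% in the buds, and its organs overlapped.

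In all, 20 unigenes of 171 to 1059 bases had a description naming ACC oxidase, of which 15 passed the filter on low counts, the 3 above included. Their summed level was 368 and 5129 CPM in the fruits, and 732 and 3490 CPM in the buds. The 3 unigenes took 55.8% and 90.5% of these reads in the fruits, and 78.3% and 86.8% in the buds, so fruit replicate 1 had the largest part in other unigenes. Of the 20, 13 carry the KEGG orthology term for ACC oxidase. The other 7 carry other terms, so their description as ACC oxidase is less sure. The 17 others summed to 163 and 487 CPM in the fruits, and 159 and 462 CPM in the buds.

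With edgeR (quasi-likelihood test, p-values adjusted by Benjamini-Hochberg) over all 59858 tested unigenes, 0 of the 12 tested others were called higher and 0 lower in fruit, as were 0.00% of all unigenes in each direction. At an unadjusted p under 0.05 there were also 0 of the 12 in each direction, against 0.510% higher and 1.11% lower over all unigenes. DESeq2 called 0 of the 12, against 0.0491% higher and 0.210% lower over all. The median log2 change of the 12 was 0.24, and that of all tested unigenes 0.01.

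Among these others, 3 unigenes varied with the replicate as the 3 above did. Unigene54037_P106, of 267 bases and closest to a Capsicum ACC oxidase, had 10.8 and 250 CPM in fruit replicates 1 and 2, against 56.1 and 246 CPM in floral bud replicates 1 and 2. Unigene31678_P106, of 279 bases with the same best hit, measured 2.0 and 49.8 CPM in the fruit libraries, against 7.05 and 75.3 CPM in the bud libraries. Unigene52529_P106, of 497 bases and named for an ACC oxidase 1 entry, had 9.11 and 92.3 CPM in the fruit libraries, against 28.3 and 65.1 CPM in the bud libraries. In each of the 3, both libraries of replicate 2 were above both of replicate 1. The first 2 of them were at least 4-fold higher in replicate 2 of both organs, which 0.284% of tested unigenes were. With all 4 libraries, edgeR gave the 3, in the same order, log2 changes of fruit over bud of -0.13, -0.60 and 0.20. Without fruit replicate 2, these were -3.96, -4.52 and -2.49. The 3 were grouped by their levels in these same libraries, with fruit replicate 1 lowest, so nothing is read from the second fit. That fit leaves 1 fruit library, which is assumed to vary like the buds. Unigene54037_P106 had 0.0910 and 0.0930 reads for each read of Unigene54240_P106 in the fruits, and 0.197 and 0.161 in the buds, the same side as Unigene1527_P106. Unigene31678_P106 was also lower relative to Unigene54240_P106 in both fruits than in both buds, while Unigene52529_P106 was not. The RPKM of Unigene54037_P106 was 1.06 and 1.01 times that of Unigene1527_P106 in the fruits, and 1.17 and 0.918 times in the buds. Whether these unigenes are pieces of the same transcripts as each other, or as the 3 unigenes described first, was not tested.

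Other ACC oxidase unigenes did not follow the replicates. Unigene54141_P106, of 429 bases and named for an ACC oxidase 3 entry, had 86.4 and 49.3 CPM in fruit replicates 1 and 2, against 37.9 and 35.0 CPM in floral bud replicates 1 and 2. Both fruit libraries were above both buds, and fruit replicate 1 was the highest, where the 3 unigenes described first were lowest. Its log2 change was 0.89 (SE 0.36), with an unadjusted p = 0.0636 and an adjusted p of 1 by edgeR with Benjamini-Hochberg adjustment. CPM was higher in both fruits than in both buds for 10.2% of all tested unigenes. Unigene118770_P106, of 229 bases and closest to ACO1 of Nicotiana attenuata, measured 28.9 and 22.7 CPM in the fruit libraries, against 14.5 and 17.1 CPM in the bud libraries, again without overlap (log2 change 0.71, SE 0.31, edgeR unadjusted p = 0.0791, adjusted p = 1).

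The remaining named unigenes of the list were scarce. Unigene94526_P106 had 7.44 and 5.95 CPM in the fruit libraries, against 2.20 and 5.49 CPM in the bud libraries. Unigene49125_P106, described as ACC oxidase 5-like, measured 5.33 and 4.13 CPM in the fruit libraries, against 3.93 and 5.37 CPM in the bud libraries, so its organs overlapped. Unigene33520_P106 had 4.22 and 4.49 CPM in the fruit libraries, against 3.70 and 6.33 CPM in the bud libraries. Unigene12483_P106 measured 1.67 and 2.55 CPM in the fruit libraries, against 1.16 and 1.31 CPM in the bud libraries, and Unigene12527_P106 held 1.56 and 2.06 CPM in the fruits, and 1.97 and 1.07 CPM in the buds. These last 3 are among those with another orthology term.

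**Figure D3:**
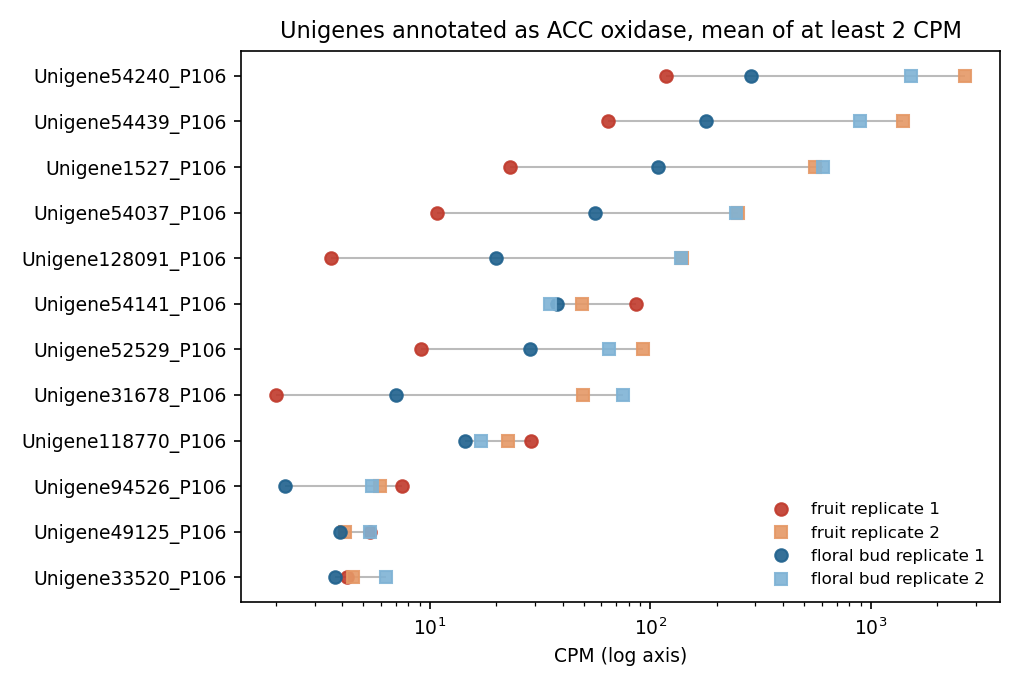
CPM (log axis) in each library of 12 unigenes with a mean of at least 2 CPM, 11 of them described as ACC oxidase and Unigene128091_P106 by its orthology term. In 7 of them, from Unigene54240_P106 with 118 and 2686 CPM in the fruits to Unigene31678_P106 with 2.0 and 49.8 CPM, fruit replicate 1 is lowest and floral bud replicate 1 second lowest, while Unigene54141_P106 is highest in fruit replicate 1.

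A further 6 unigenes carried the ACC oxidase orthology term under another description. One of them, Unigene128091_P106, of 210 bases and described only as an ACC protein of poplar, was singled out after its values were seen. It had 3.56 and 139 CPM in fruit replicates 1 and 2, against 20.0 and 137 CPM in floral bud replicates 1 and 2, with both libraries of replicate 2 high. Its reads for each read of Unigene54240_P106 were lower in both fruits than in both buds. The other 5 had descriptions of other proteins and lay at 18.4 CPM or less in every library.

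The step before ACC oxidase had far lower levels and a smaller spread. Of 12 unigenes described as ACC synthase, 3 passed the filter, and the list summed to 30.8 and 57.0 CPM in the fruits, and 36.9 and 39.8 CPM in the buds. Unigene137642_P106 had 13.6 and 28.5 CPM in the fruit libraries, against 14.6 and 24.8 CPM in the bud libraries. Unigene137941_P106 measured 10.2 and 16.9 CPM in the fruit libraries, against 10.5 and 8.96 CPM in the bud libraries. Both are closest to an ACC synthase of Capsicum, and the organs overlapped in both.

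SAM synthetase, which supplies the substrate of ACC synthase, was abundant, and its summed level was steady. Its 19 unigenes summed to 2239 and 2211 CPM in the fruits, and 2128 and 2442 CPM in the buds. Single unigenes could still vary: Unigene137934_P106 was lower in replicate 2 than in replicate 1, with log2 ratios of -3.17 in fruit and -3.64 in bud. Unigene53406_P106 was at 907 CPM in each fruit, and at 846 and 900 CPM in the buds. Unigene53106_P106 had 535 and 513 CPM in the fruit libraries, against 441 and 498 CPM in the bud libraries. Their highest library exceeded the lowest by far less than the 22.7-fold of Unigene54240_P106. Proteins of the ETO1 type, which in Arabidopsis mark ACC synthase for breakdown, were listed 19 times and summed to 268 and 264 CPM in the fruits, and 215 and 208 CPM in the buds. Ethylene overproducer-like 1 (Unigene130541_P106) measured 130 and 80.7 CPM in the fruit libraries, against 81.3 and 82.3 CPM in the bud libraries, with fruit replicate 1 alone apart. Unigene130399_P106, an ethylene-overproducer1-like transcript, had 66.3 and 41.8 CPM in the fruit libraries, against 46.6 and 48.4 CPM in the bud libraries.

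The methionine salvage list, 13 unigenes, summed to 709 and 583 CPM in the fruits, and 590 and 639 CPM in the buds. Acireductone dioxygenase (Unigene53046_P106), an enzyme of that cycle, measured 320 and 240 CPM in the fruit libraries, against 234 and 241 CPM in the bud libraries. Methylthioribose-1-phosphate isomerase-like (Unigene120112_P106) had 108 and 117 CPM in the fruit libraries, against 122 and 146 CPM in the bud libraries, with both fruits below both buds, as in 12.4% of all tested unigenes. Of the enzymes handling cyanide, a beta-cyanoalanine synthase transcript (Unigene118785_P106) had 34.3 and 333 CPM in fruit replicates 1 and 2, against 80.6 and 259 CPM in floral bud replicates 1 and 2. It had the order of libraries seen in Unigene54240_P106, with a fruit replicate 2 level 9.70 times that of replicate 1 and a bud ratio of 3.22. Fruit replicate 1 lowest and floral bud replicate 1 second lowest was the order of 18.6% of all tested unigenes. The next unigene by level in that list was a rhodanese-like protein 14 (Unigene16508_P106), at 86.3 and 17.4 CPM in the fruits, and 29.3 and 22.2 CPM in the buds. Most of the 43 unigenes of the list are rhodanese-like domain proteins, whose substrates differ or are unknown.

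ACC oxidase homologs are related dioxygenases named for their similarity, a group not known to make ethylene. Their 43 unigenes summed to 562 and 784 CPM in the fruits, and 594 and 508 CPM in the buds; the pattern also took in E4/E8 binding protein, a tomato protein of another kind. Unigene53336_P106 measured 296 and 440 CPM in the fruit libraries, against 368 and 269 CPM in the bud libraries. Unigene383_P106 had 78.8 and 70.3 CPM in the fruit libraries, against 58.9 and 53.1 CPM in the bud libraries, without overlap (log2 change 0.43, SE 0.31, edgeR adjusted p = 1).

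**Figure D4:**
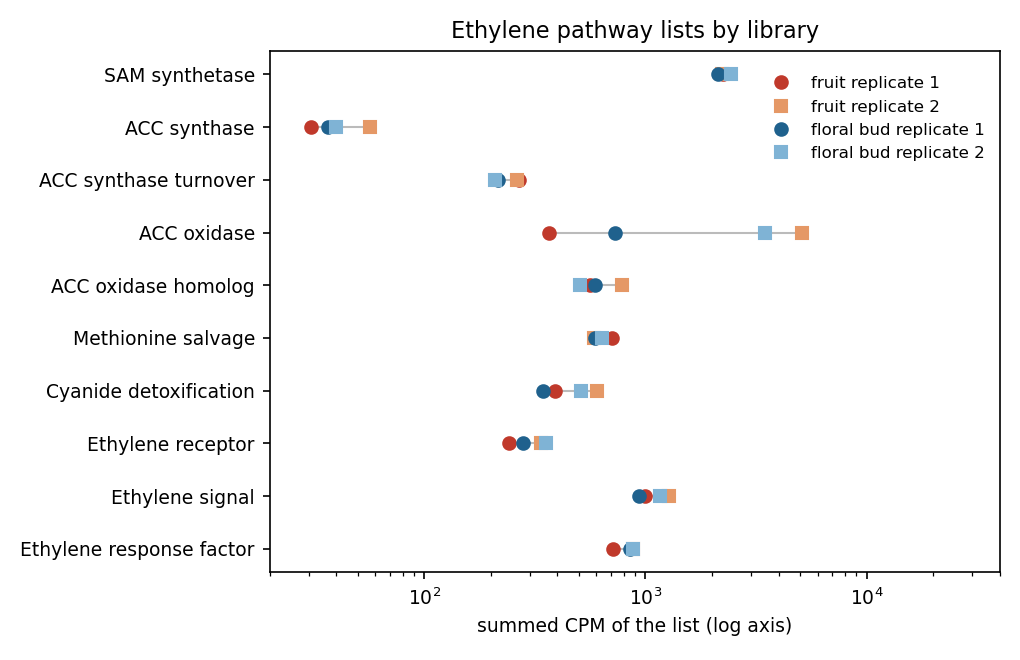
Summed CPM (log axis) of each ethylene pathway list in each library. ACC oxidase runs from 368 CPM in fruit replicate 1 to 5129 CPM in fruit replicate 2, whereas SAM synthetase lies between 2128 and 2442 CPM.

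Ethylene receptors, 27 unigenes, summed to 243 and 337 CPM in the fruits, and 280 and 357 CPM in the buds. Unigene16804_P106 measured 49.1 and 54.9 CPM in the fruit libraries, against 44.2 and 57.9 CPM in the bud libraries. Another receptor transcript (Unigene43941_P106) had 13.2 and 48.8 CPM in the fruit libraries, against 42.5 and 49.3 CPM in the bud libraries, with fruit replicate 1 alone low. Downstream of the receptors, 58 unigenes summed to 999.6 and 1283 CPM in the fruits, and 932 and 1166 CPM in the buds. EIL3 (Unigene27774_P106), of the EIN3 family, measured 98.2 and 176 CPM in the fruit libraries, against 122 and 134 CPM in the bud libraries. A further EIN3-like transcript (Unigene127959_P106) had 25.2 and 83.9 CPM in the fruit libraries, against 57.6 and 96.0 CPM in the bud libraries.

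Ethylene response factors, 114 unigenes, summed to 714 and 882 CPM in the fruits, and 853 and 880 CPM in the buds; the pattern also matched ERF3A, a translation release factor. An ethylene-responsive element binding protein (Unigene54572_P106) measured 100.1 and 122 CPM in the fruit libraries, against 69.4 and 82.5 CPM in the bud libraries, without overlap (log2 change 0.57, SE 0.38, edgeR adjusted p = 1). Ethylene-responsive transcription factor 3 (Unigene53833_P106) had 44.2 and 63.5 CPM in the fruit libraries, against 60.0 and 70.7 CPM in the bud libraries.

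Over the 10 pathway lists without the 3 unigenes described first, 246 of 365 unigenes were tested. At a Benjamini-Hochberg adjusted p under 0.05, edgeR called 0 higher and 0 lower in fruit, as did DESeq2. At an unadjusted p under 0.05, 1 was higher and 0 lower: a transcript described as ERF034-like (Unigene49042_P106), at 3.89 and 3.16 CPM in the fruits, and 1.5 and 1.43 CPM in the buds (edgeR unadjusted p = 0.0369, adjusted p = 1). Over all tested unigenes 0.510% were higher and 1.11% lower at that p, so 1 of 246 is no more than the background. The median log2 change of the 246 was 0.07. Their median range over the 4 libraries was 0.99 on the log2 scale, and that of all tested unigenes was 0.95. Replicate 2 was above replicate 1 in both organs for 110 of the 246, against 34.7% of all tested unigenes.

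Without fruit replicate 2, edgeR called 3 pathway unigenes higher and 19 lower of 264, against 2.29% and 6.14% of all unigenes. The 3 higher were a WIN1-like ethylene response factor (Unigene25633_P106), at 49.8 and 8.01 CPM in the fruits, and 7.17 and 10.6 CPM in the buds, the rhodanese-like Unigene16508_P106, and a scarce ethylene response factor (Unigene77521_P106) with 2.44 CPM in fruit replicate 1 and 0 counts in the other libraries. Among the lower were the receptor transcripts Unigene43941_P106, Unigene44110_P106, Unigene44544_P106 and Unigene44547_P106, which all have the same best hits. Of the lower signalling unigenes, Unigene127959_P106, Unigene128287_P106 and Unigene142726_P106 also shared theirs. Whether such unigenes are pieces of 1 transcript was not tested. Also lower were the 3 ACC oxidases above and Unigene118785_P106. Without fruit replicate 1, 4 were called higher and 0 lower of 261, against 1.44% and 0.466% of all unigenes. These were the ACC oxidase homologs Unigene70148_P106 and Unigene115746_P106, the rhodanese-like Unigene127207_P106 and the ETO1-type Unigene72174_P106. Unigene70148_P106 measured 1.0 and 57.2 CPM in the fruit libraries, against 2.20 and 11.3 CPM in the bud libraries, and Unigene115746_P106 had 0.222 and 19.7 CPM in the fruits, and 0.810 and 5.01 CPM in the buds. Without fruit replicate 2 both were called lower. Both fits share the bud libraries and leave 1 fruit library. Unigenes named here from these fits, and those with the 4-fold replicate difference named next, were picked after their values were seen.

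At least 4-fold higher in replicate 2 of both organs were 7 of the 246, against 0.284% of all tested unigenes. They were the ACC oxidases Unigene54037_P106 and Unigene31678_P106, the homologs Unigene70148_P106 and Unigene115746_P106, a receptor transcript (Unigene44547_P106) and the ABR1-like response factors Unigene137837_P106 and Unigene139403_P106. The ACC oxidase pair shares a best hit, as does the ABR1-like pair in the annotation of replicates 2. Whether they are pieces of 1 transcript was not tested, so the 7 may not be separate genes. The receptor transcript had 2.56 and 19.5 CPM in the fruit libraries, against 7.17 and 28.8 CPM in the bud libraries. Unigene139403_P106 measured 1.0 and 18.1 CPM in the fruit libraries, against 2.89 and 14.2 CPM in the bud libraries. None of the ACC synthase, SAM synthetase, salvage, ETO1-type, cyanide or signalling unigenes met this criterion. These lists had 3 to 49 tested unigenes each, so at a share of 0.284% few or none would meet it.

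**Figure D5:**
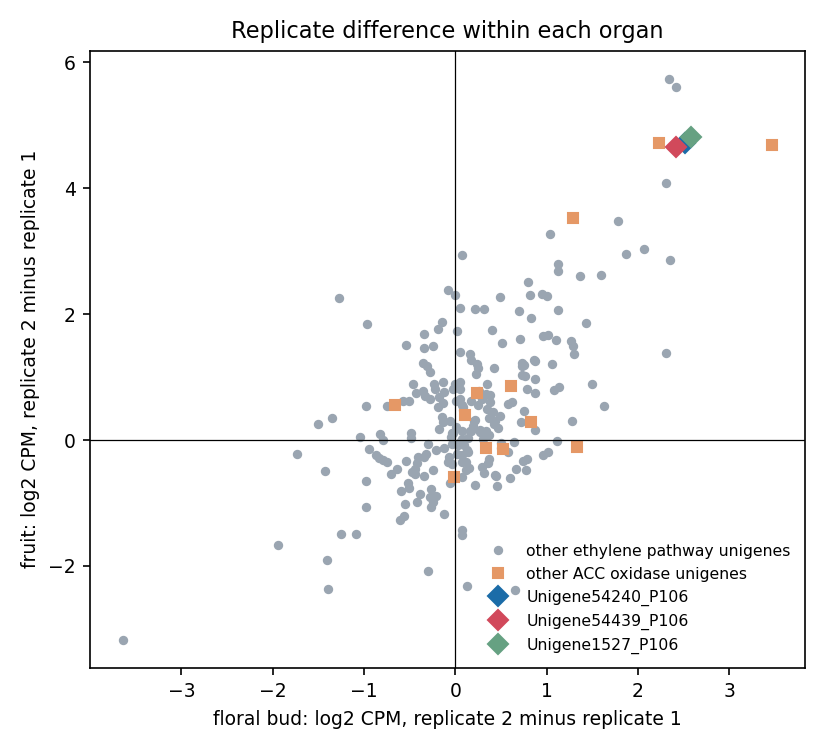
Replicate 2 minus replicate 1 in log2 CPM, in floral bud (x axis) and in fruit (y axis), for the tested unigenes of the pathway lists. The 3 ACC oxidase unigenes lie together in the upper right, with 4 other pathway ACC oxidases or homologs that were also at least 4-fold higher in replicate 2 of both organs, while the median of the 246 other pathway unigenes is 0.30 in fruit and 0.12 in bud.

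The unigenes most like the 3 in pattern were found by the Euclidean distance between log2 CPM values over the 4 libraries, each unigene centred on its own mean, among 17910 described unigenes with a mean of at least 10 CPM. Unigene54240_P106 and Unigene54439_P106 lay 0.21 apart, Unigene54439_P106 and Unigene1527_P106 0.76, and Unigene54240_P106 and Unigene1527_P106 0.94. The median distance from Unigene54240_P106 over all these unigenes was 3.80. Outside the ACC oxidase list, the nearest to each of the 3 was an ARGOS transcript (Unigene130873_P106), related to a regulator of organ size in Arabidopsis. Its distances were 0.59 from Unigene54240_P106, 0.42 from Unigene54439_P106 and 0.39 from Unigene1527_P106. It had 2.56 and 73.4 CPM in fruit replicates 1 and 2, against 10.8 and 56.2 CPM in floral bud replicates 1 and 2.

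Next for Unigene54240_P106 were a citrate binding protein transcript (Unigene5771_P106, distance 0.74) and a serine protease inhibitor 1-like transcript (Unigene5224_P106, 0.85), and the same pair was next for Unigene54439_P106. Unigene5224_P106 had 12.2 and 217 CPM in the fruit libraries, against 51.6 and 157 CPM in the bud libraries. For Unigene1527_P106 they were Unigene128091_P106 (0.47), the unigene with the ACC oxidase orthology term, and a metallothionein (Unigene53647_P106, 0.59), a metal-binding protein. The metallothionein measured 3.89 and 127 CPM in the fruit libraries, against 25.3 and 85.5 CPM in the bud libraries. Each of these also had both libraries of replicate 2 above both of replicate 1.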

How the data were processed

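The deposited counts are uniquely mapped reads per unigene, per the file headers. The deposited RPKM scales them by length and library total (largest relative deviation when recomputed 1.05e-08), and the deposited coverage is the percent of a unigene's length reached by reads. Per the labels' protocols, about 20 µg of TRIzol-extracted RNA per library was sequenced on an Illumina HiSeq instrument. The sources used here name no assembler, aligner or counting program and give no strand. A library of mixed organs was not analysed here, and no sequence or genome was used. Unigenes missing from a file were taken as 0.

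Counts were fitted with edgeR 4.0.16 in R 4.3.3 (filterByExpr by organ, TMM, glmQLFit, glmQLFTest, two-sided, no covariate, 2 residual degrees of freedom), with Benjamini-Hochberg adjustment over 59858 unigenes and a threshold of 0.05. The step was tested on simulated data. DESeq2 1.42.0 was an alternative. Standard errors are the log2 change divided by the root of F. CPM uses library totals; log2 CPM uses TMM and a prior count of 2. Intervals are exact Poisson or Clopper-Pearson, at 95%.

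Members and lists were chosen with earlier results of these data known. Lists were patterns on the descriptions (those of replicates 2 where given, otherwise of replicates 1; 78.9% of tested unigenes had one), and 5 lists held markers or ribosomal proteins; the latter summed to 21870 and 15680 CPM in the fruits, and 20760 and 19430 CPM in the buds. Named unigenes were the 3 members, up to 10 further ACC oxidases with at least 1 CPM, the 2 most abundant of each other list, and the 3 nearest in pattern to each member; others were chosen after their values were seen.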

Additional observations from a re-analysis of the deposited data

Results flagged for a closer look

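For Unigene54240_P106 and Unigene54439_P106 the change of fruit over floral bud ran in opposite directions in the 2 replicates, with 1 library per organ in each. For Unigene54240_P106 it was -1.27 on the log2 CPM scale in replicate 1 and 0.82 in replicate 2, and for Unigene54439_P106 -1.48 in replicate 1 and 0.64 in replicate 2. The difference between the replicates was not tested.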

How the results depend on the processing

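The counts of calls moved with the fruit libraries and the tool. Over all unigenes edgeR called 0 higher and 0 lower in fruit, DESeq2 called 30 and 128, and with 1 library left out edgeR called 0 to 1546 higher and 0 to 4135 lower. In the pathway lists the leave-one-out counts ran from 0 to 4 higher and 0 to 19 lower. Leaving out 1 library, the log2 change ran from -3.09 to 2.52 for Unigene54240_P106, from -3.23 to 2.25 for Unigene54439_P106 and from -4.11 to 1.65 for Unigene1527_P106, so none of the 3 kept its direction; the cause was not tested. Read shares moved with their definition. As shares of summed RPKM the fruit minus bud differences were 3.58, 1.79 and -5.38 percentage points for Unigene54240_P106, Unigene54439_P106 and Unigene1527_P106, and over the whole ACC oxidase list those of Unigene54240_P106 and Unigene54439_P106 were 0.91 and -2.78. With 1 library left out, the share difference of Unigene1527_P106 stayed between -8.36 and -7.25 points. With the replicate number as a block, edgeR again called 0 unigenes, and the log2 changes were -0.21, -0.41 and -1.15; same-numbered libraries deviated together across unigenes (r = 0.47), but the labels do not say what a number marks. With RLE scaling, library totals, deposited RPKM or no filter on low counts, Unigene54240_P106 had log2 changes of 0.63 to 0.72. Those of Unigene54439_P106 were 0.44 to 0.53, and those of Unigene1527_P106 were -0.29 to -0.20. With 2 libraries per organ and the spread between replicates, even large differences could go uncalled. Of the 8 tested seed storage unigenes, edgeR called 0 over the 4 libraries, although their median log2 change was -3.86. The whole-list shares, the share differences with 1 library left out, the averages of log2 CPM and the pathway lists without release factors, binding proteins and rhodanese-like proteins (324 unigenes, 0 calls by edgeR, adjusted by Benjamini-Hochberg) were chosen after seeing the data.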
